A study of Homo sapiens with 6 samples.

Results

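The lysosomal genes described here are 42 genes of proteases, hydrolases, membrane proteins, proton pump subunits and transcription factors of the lysosome. They were chosen by name, for the interest of cathepsin cleavage of the RC48 linker, and all 42 were found by symbol among the 16390 genes listed for each library. By role they were divided into 8 membrane proteins and lipid exporters, 10 proteases, 6 lipid-degrading enzymes and activators, 10 glycosidases, 3 sulfatases, 3 proton pump subunits and 2 transcription factors.

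RC48 is an antibody–drug conjugate, in which an antibody against ERBB2 carries the microtubule inhibitor monomethyl auristatin E through a protease-cleavable linker. Total RNA was sequenced from SW780, an established human bladder cancer cell line, in 3 libraries labelled Control and 3 libraries labelled RC48, whose cells were exposed to RC48 at 25 µg/ml. The exposure time, the medium given to the Control cells and whether the libraries came from separate cultures are not given in the sources used here, so that p-values measure the spread between these libraries, which may be technical. All samples came from 1 cell line, and all 12 epithelial markers examined had at least 1 TPM in the Control libraries.

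A lysosome is an acidic organelle in which proteases, glycosidases, lipases and sulfatases degrade material delivered by endocytosis and autophagy. An antibody–drug conjugate bound to its antigen is taken up into this pathway, where cathepsins such as CTSB can cut a dipeptide linker and free the drug. Many lysosomal genes are controlled by TFEB and TFE3, transcription factors that bind an E-box-like element in their promoters.

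Estimated counts summed to between 16453233 and 17988030 per library, and the members took 0.62% to 0.785% of them. The RC48 libraries stood further apart from each other than the Control libraries did. Pairs of libraries were compared over 12428 genes by chi-square divided by its degrees of freedom, expected to be near 1 for sampling noise alone. This value ran from 1.48 to 11.4 between Control libraries and from 21.7 to 131 between RC48 libraries. The log2 ratio of an RC48 library to the Control mean followed the GC content of the transcripts in RC48 replicates 1 and 3, with Spearman's rho across 13000 genes of 0.737 and 0.566, and not in replicate 2, with −0.0111. As genes are not independent, these carry no p-value, and log2 fold changes of the members are also given after a correction for GC content.

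The baseline was examined first, since TPM values are scaled for gene length and allow levels of different genes to be compared. In Control SW780 cells, the most abundant members were CD63, a tetraspanin of late endosomes and lysosomes, the aminopeptidase cathepsin H (CTSH), the cholesterol carrier NPC2, the aspartic protease cathepsin D (CTSD), and prosaposin (PSAP), the precursor of the saposins that assist lipid breakdown. These 5 genes made up 60.8% of the summed TPM of the members and ranked 139, 144, 161, 181 and 312 among all genes listed. The median member had 62.2 TPM, compared with 19.5 TPM for all genes tested. There were 13 members above 100 TPM (10.5% of all genes listed exceeded this level), and 3 members, ARSB, TFEB and SMPD1, were under 10 TPM.

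CD63 had 951, 964 and 944 TPM in Control replicates 1, 2 and 3 and 1430, 1160 and 1170 TPM in RC48 replicates 1, 2 and 3. CTSH had 934, 938 and 897 TPM in Control and 928, 948 and 1000 TPM in RC48. NPC2 had 878, 889 and 795 TPM in Control and 684, 867 and 765 TPM in RC48. Thus CD63 lay above the Control range in all RC48 libraries, while the groups overlapped for CTSH and NPC2. CTSD had 780, 778 and 730 TPM in Control and 1080, 657 and 768 TPM in RC48, so that the RC48 libraries spanned both sides of the Control range. PSAP had 461, 455 and 486 TPM in Control and 536, 513 and 530 TPM in RC48, with no overlap between the groups. Control means were 953 ± 10.4 TPM for CD63, 923 ± 22.9 for CTSH, 854 ± 51.0 for NPC2, 762 ± 28.2 for CTSD and 467 ± 16.3 for PSAP (SD, n = 3 each). Neighbours in this order did not overlap in the Control libraries, although the lowest value of CTSH, 897 TPM, lay close to the highest of NPC2, 889 TPM.

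Among the remaining proteases, the carboxypeptidase CTSA had 191 ± 1.45 TPM in Control, the asparaginyl endopeptidase LGMN 147 ± 5.34, the dipeptidyl peptidase CTSC 145 ± 7.17, CTSB 88.9 ± 0.780, CTSZ 75.6 ± 1.29, CTSL 74.1 ± 4.24, the tripeptidyl peptidase TPP1 30.1 ± 1.56 and CTSS 19.7 ± 0.312 TPM (SD, n = 3 each). LGMN and CTSC did not differ beyond their spread, and neither did CTSZ and CTSL. The proteases as a group summed to 2472, 2479 and 2421 TPM in Control replicates 1, 2 and 3, which was 37.7% of the members' total, and to 3049, 2412 and 2629 TPM in RC48 replicates 1, 2 and 3. The membrane proteins and lipid exporters, which include NPC2, made up 35.6% of the Control total. The lipid-degrading enzymes and activators made up 12.8%, the glycosidases 7.1% and the proton pump subunits 5.05%. Transcripts of the cysteine cathepsins that can cut the linker were therefore present before exposure, with CTSB at a level above the median member.

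**Figure D1:**
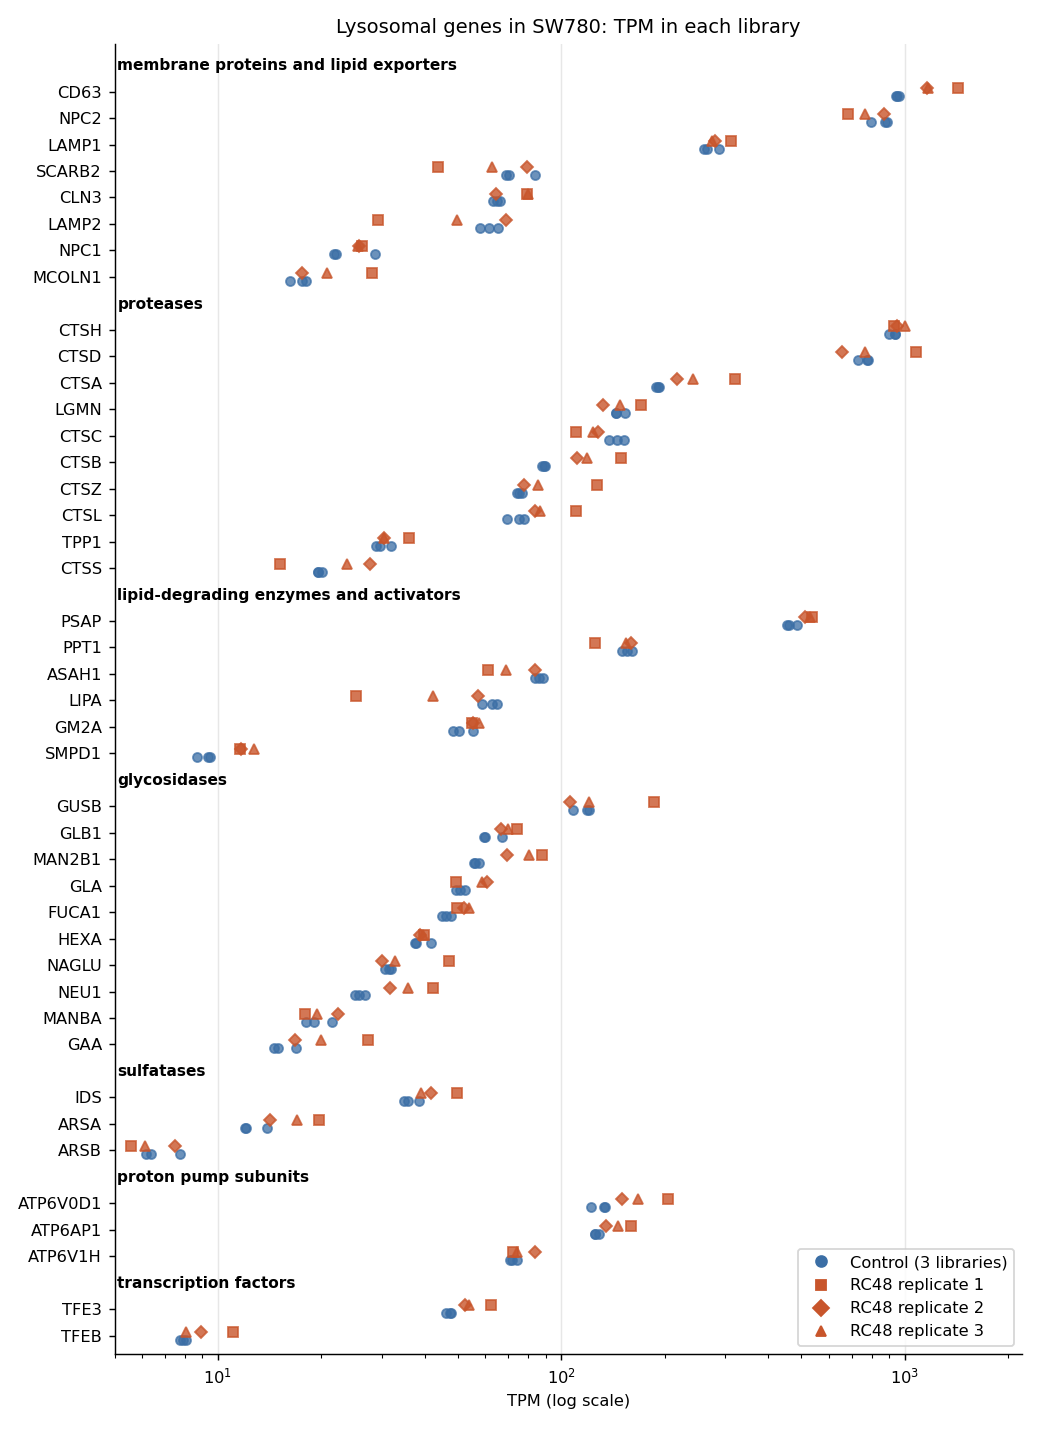
TPM of each member in each library on a log scale, ordered by role and by mean Control level within a role. Blue circles are the 3 Control libraries and orange symbols the RC48 libraries, and the TPM of RC48 replicate 2 was computed here from its counts. Levels run from 6.77 TPM (ARSB, Control mean) to 953 TPM (CD63, Control mean), and RC48 replicate 1 (squares) often lies farthest from the Control circles.

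The next question was whether exposure to RC48 changed the expression of these genes. All 42 members passed the filter on low counts. None of the 42 had an adjusted p-value under 0.05 by edgeR (quasi-likelihood test, Benjamini-Hochberg adjustment across the 13055 genes tested), in which 2.21% of all genes were called (288 genes). The lowest adjusted p-value was 0.135, for the lysosomal alpha-mannosidase MAN2B1. At an unadjusted p-value under 0.05, 11 members were higher in RC48 (11.9% of all genes tested) and 0 were lower (7.21% of all genes). These were CTSL, SMPD1, ARSA, ATP6V0D1, CD63, GAA, CTSA, MAN2B1, CTSB, NEU1 and TFE3. DESeq2 called 1 member, MAN2B1 (4.78% of all genes called), and limma on log2(TPM+1) with 6 libraries called 0 (1.63% of all genes). With the 5 libraries whose TPM was deposited, which lack RC48 replicate 2, limma called 8 members (20.8% of all genes), 7 of them higher and LIPA lower. Without RC48 replicate 2, 16 members were called, 15 of them higher and LIPA lower, with 28.3% of all genes called. Without RC48 replicate 1, CTSB, CTSS and MAN2B1 were called, with 6.82% of all genes.

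Although no member was called, log2 fold changes lay mostly above 0. Of the members, 36 had a positive log2 fold change, compared with 51.4% of all genes, and the median was 0.26 for the members and 0.02 for all genes. After the correction for GC content, 28 members had a positive value (46.1% of all genes), and the medians were 0.09 and −0.03. Standard errors of single members ran from 0.10 to 0.25 on the log2 scale. The 95% interval of the uncorrected log2 fold change lay within −1 and 1 for 37 of the 42 members, the exceptions being CTSA, CTSZ, GAA, LIPA and MCOLN1, and for all 42 after the correction. Changes larger than 2-fold were therefore outside the interval for 37 members.

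Values of CPM, which are counts scaled to the normalised library size, did not overlap between the groups for 23 members, 20 of them higher in RC48 (17.4% of all genes tested) and 3 lower (14.1% of all genes). The 20 were ARSA, ATP6AP1, ATP6V0D1, ATP6V1H, CD63, CTSA, CTSB, CTSL, FUCA1, GAA, GLA, GLB1, GM2A, LAMP1, MAN2B1, NEU1, PSAP, SMPD1, TFE3 and TFEB, and the 3 were ASAH1, CTSC and LIPA. For each of these the exact two-sided permutation test gave 0.1, the smallest p-value that 3 libraries against 3 can give. With the correction, 13 members were higher without overlap (14.2% of all genes) and 2, HEXA and LIPA, were lower (19.9% of all genes). Both directions together made up 35.7% of the members, near the 34.1% of all genes, compared with 54.8% and 31.5% before the correction. The directions differed after the correction, with 13 of 42 members higher and 2 lower. Among all genes fewer were higher (14.2%) than lower (19.9%).

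**Figure D2:**
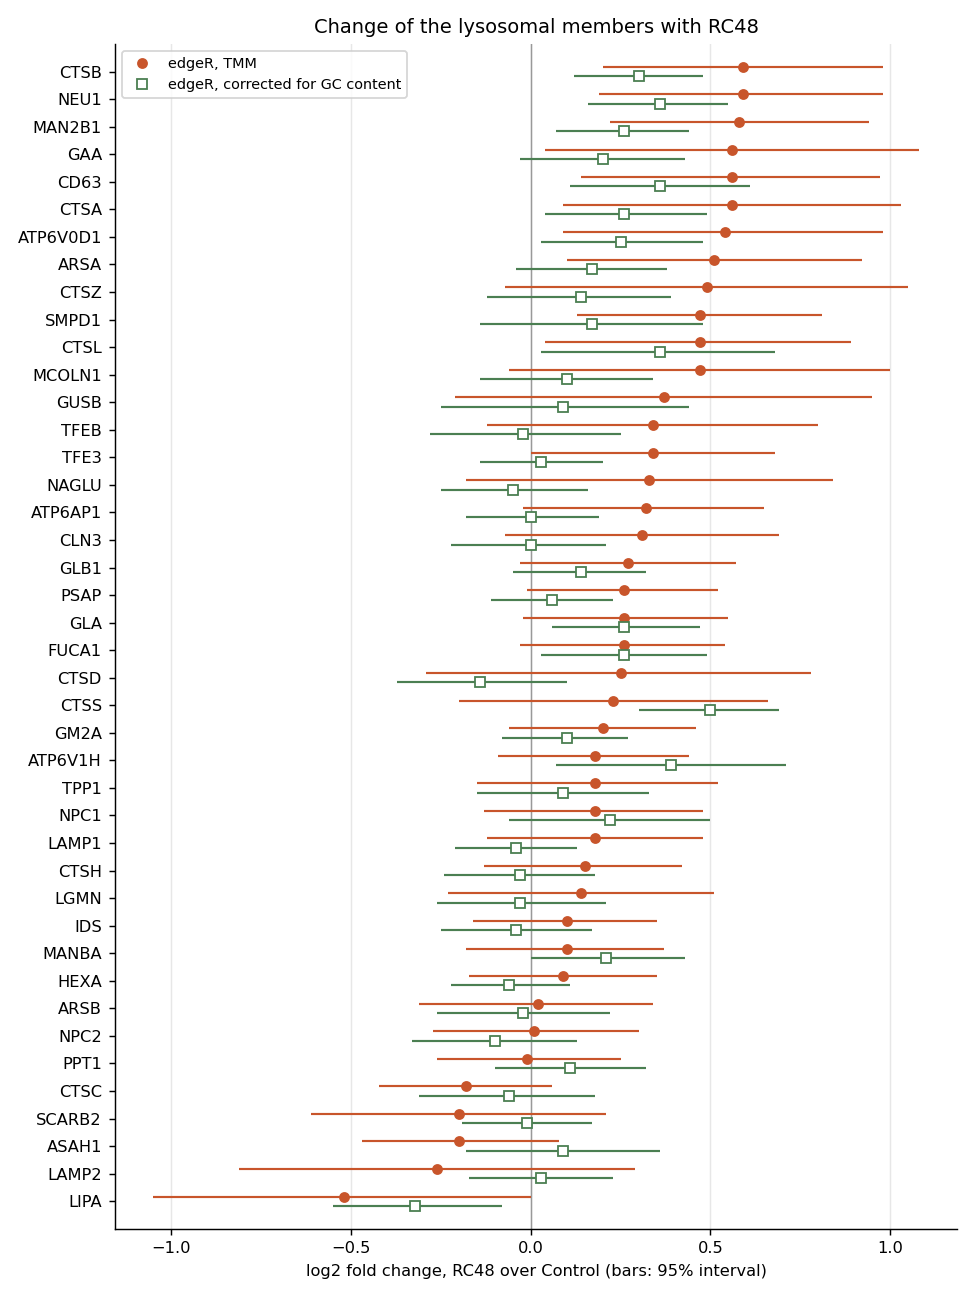
Log2 fold change of each member, RC48 over Control, with its 95% interval, in the uncorrected edgeR fit (orange circles) and after the correction for GC content (green open squares). Most uncorrected values lie above 0, from −0.52 (LIPA) to 0.59 (NEU1, CTSB), and the corrected values lie closer to 0 with a median of 0.09.

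The proteases were considered next because of the linker. CTSB, the cysteine protease most often named in linker cleavage, had 177, 180 and 165 CPM in Control replicates 1, 2 and 3 and 327, 213 and 244 CPM in RC48 replicates 1, 2 and 3. All RC48 libraries lay above all Control libraries, with replicate 1 the highest. The log2 fold change was 0.59 ± 0.17 (SE), with an adjusted p-value of 0.150 in edgeR's quasi-likelihood test, and 0.30 after the correction for GC content (adjusted p = 0.0551, edgeR). Without RC48 replicate 1, it was 0.39 and was called.

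CTSS, a cysteine protease that stays active at neutral pH, was the 1 protease whose RC48 libraries lay on both sides of Control with replicate 1 the lowest. It had 41.5, 41.6 and 39.0 CPM in Control and 35.4, 56.4 and 51.5 CPM in RC48, so that replicates 2 and 3 lay above all Control libraries. CTSS lies at chr1:150730188-150765778 (GRCh38), and its transcripts are poor in GC (41.8%). The log2 fold change of CTSS was 0.23 ± 0.18 (SE, edgeR, adjusted p = 0.433) without the correction and 0.50 with it, when CTSS was called higher with an adjusted p-value of 0.0122 (edgeR). After the correction, 7.18% of all genes were called. The corrected log2 ratios of RC48 replicates 1, 2 and 3 to the Control mean were 0.46, 0.44 and 0.58. With a term for the replicate number beside the correction, CTSS was the 1 member called (4.88% of all genes).

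The aspartic protease CTSD had 796, 797 and 680 CPM in Control and 1240, 644 and 808 CPM in RC48. CTSH had 1000, 1010 and 879 CPM in Control and 1120, 977 and 1110 CPM in RC48. In both genes the groups overlapped, and their log2 fold changes of 0.25 and 0.15 turned to −0.14 and −0.03 with the correction. CTSA, which also protects other lysosomal enzymes in a complex, had 172, 174 and 159 CPM in Control and 329, 189 and 226 CPM in RC48, with no overlap. CTSL had 55.0, 51.0 and 51.8 CPM in Control and 93.0, 59.1 and 65.9 CPM in RC48. These did not overlap either, and reads of CTSL may be shared with its near relative CTSV. For CTSZ, a carboxypeptidase, values were 51.9, 52.6 and 48.9 CPM in Control and 102, 52 and 61.7 CPM in RC48, where replicate 2 fell inside the Control range. The log2 fold changes of CTSA, CTSL and CTSZ were 0.56, 0.47 and 0.49, and 0.26, 0.36 and 0.14 after the correction.

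CTSC, which activates serine proteases, was the 1 protease whose RC48 libraries all lay below Control, at 121, 120 and 123 CPM compared with 135, 142 and 136 CPM. A log2 fold change of −0.18 was found (edgeR, adjusted p = 0.324) which was −0.06 after the correction. LGMN had 141, 141 and 136 CPM in Control and 188, 124 and 149 CPM in RC48. TPP1 had 53.9, 55.3 and 54.3 CPM in Control and 73.3, 54.5 and 58.2 CPM in RC48. In both, the groups overlapped through RC48 replicate 2, and their log2 fold changes of 0.14 and 0.18 became −0.03 and 0.09.

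**Figure D3:**
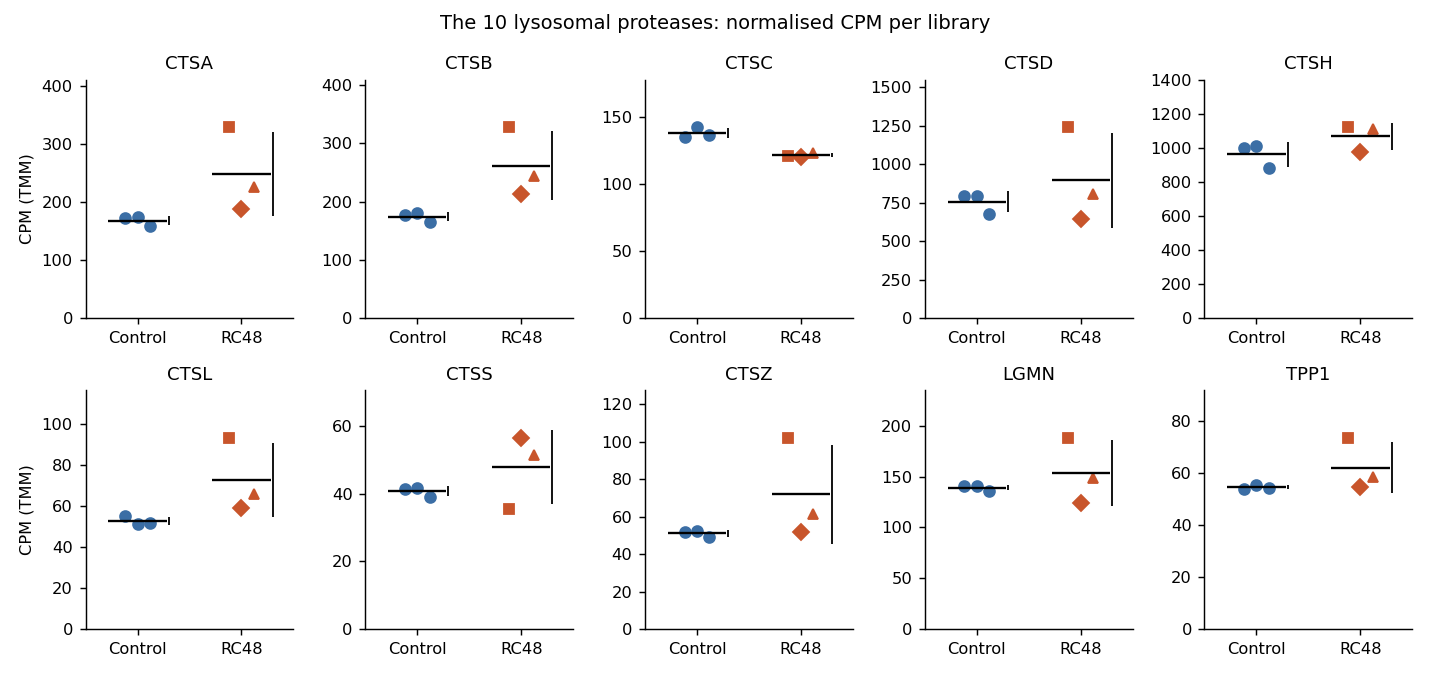
Normalised CPM of the 10 proteases in each library, with Control as blue circles and RC48 replicates 1, 2 and 3 as orange square, diamond and triangle. Horizontal lines are group means and vertical lines 1 SD (n = 3), and replicate 1 is the highest RC48 library for 8 of the 10 proteases, CTSC and CTSS being the exceptions.

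The glycosidases remove sugars from glycoproteins, glycolipids and glycogen, and all 10 had positive log2 fold changes, with a median of 0.30 that was 0.21 after the correction. NEU1, a sialidase, had 44.6, 46.1 and 43.7 CPM in Control and 82.9, 54.0 and 65.5 CPM in RC48. Its RC48 libraries all lay above Control, and the log2 fold change was 0.59 ± 0.17 (SE, edgeR, adjusted p = 0.154). With the correction NEU1 (chr6:31857659-31862821, GRCh38) was called higher, with a log2 fold change of 0.36 (adjusted p = 0.0444, edgeR). It was not called when the term for the replicate number was added. MAN2B1 (chr19:12646512-12666742) had 97.0, 94.3 and 86.2 CPM in Control and 163, 112 and 139 CPM in RC48, and its log2 fold change of 0.58 ± 0.16 (SE) became 0.26 with the correction (adjusted p = 0.0947, edgeR). GAA, which degrades glycogen, had 28.3, 27.5 and 29 CPM in Control and 56.4, 30.3 and 38.1 CPM in RC48, with a log2 fold change of 0.56 that became 0.20.

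The other glycosidases had smaller values. Log2 fold changes were 0.37 for the beta-glucuronidase GUSB, 0.33 for NAGLU, which acts on heparan sulfate, 0.27 for the beta-galactosidase GLB1, 0.26 each for the alpha-galactosidase GLA and the fucosidase FUCA1, 0.10 for the beta-mannosidase MANBA and 0.09 for the hexosaminidase subunit HEXA. After the correction, these were 0.09 for GUSB, −0.05 for NAGLU, 0.14 for GLB1, 0.26 each for GLA and FUCA1, 0.21 for MANBA and −0.06 for HEXA. GUSB has pseudogene copies, so its counts are less certain.

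The lipid-degrading enzymes and activators were divided, with 3 positive and 3 negative values. LIPA, which hydrolyses cholesteryl esters and triglycerides, had the lowest log2 fold change of the members, −0.52 ± 0.23 (SE, adjusted p = 0.262 in edgeR's quasi-likelihood test). It had 80.3, 75.6 and 75.9 CPM in Control and 36.0, 70.0 and 55.6 CPM in RC48, all RC48 libraries lying below Control. With the correction the log2 fold change was −0.32 (adjusted p = 0.0984, edgeR), so the direction was kept. The ceramidase ASAH1 had 122, 125 and 117 CPM in Control and 97.9, 117 and 103 CPM in RC48, and its log2 fold change of −0.20 became 0.09. The thioesterase PPT1 had −0.01, PSAP 0.26, the GM2 activator GM2A 0.20 and the sphingomyelinase SMPD1 0.47 on the log2 scale. After the correction, PPT1 had 0.11, GM2A 0.10 and SMPD1 0.17, and the groups overlapped for GM2A and SMPD1. PSAP had 661, 653 and 636 CPM in Control and 849, 705 and 779 CPM in RC48, and its log2 fold change after the correction was 0.06.

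Of the membrane proteins and lipid exporters, CD63 had 399, 408 and 361 CPM in Control and 730, 468 and 518 CPM in RC48, a log2 fold change of 0.56 that was 0.36 after the correction (adjusted p = 0.0857, edgeR). The structural membrane proteins LAMP1 and LAMP2 differed in sign, with 0.18 and −0.26 on the log2 scale, and both came near 0 with the correction, at −0.04 and 0.03. LAMP2 had the largest coefficient of variation of TPM among the RC48 libraries (40.4%), and its values were 75.1, 155 and 120 CPM compared with 145, 135 and 140 CPM in Control. The enzyme receptor SCARB2 had −0.20, the cholesterol transporter NPC1 0.18, its partner NPC2 0.01, the calcium channel MCOLN1 0.47 and CLN3 0.31, and after the correction −0.01, 0.22, −0.10, 0.10 and −0.00, respectively. NPC2 had 264, 270 and 218 CPM in Control and 263, 252 and 244 CPM in RC48.

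The sulfatases and pump subunits completed the set. The sulfatases ARSA, IDS and ARSB, which act on sulfatide, heparan and dermatan sulfate, had log2 fold changes of 0.51, 0.10 and 0.02, and 0.17, −0.04 and −0.02 after the correction. IDS has a pseudogene copy. The proton pump acidifies the lysosome, and its subunits ATP6V0D1, ATP6AP1 and ATP6V1H had 0.54, 0.32 and 0.18. The groups did not overlap in any of the 3 (17.4% of all genes tested were higher without overlap). Of 18 other pump subunits tested, 3 were higher without overlap and 1 lower. After the correction the values of ATP6V0D1, ATP6AP1 and ATP6V1H were 0.25, 0.00 and 0.39, and the groups overlapped for ATP6AP1. ATP6V0D1 had 103, 105 and 86.4 CPM in Control and 181, 112 and 134 CPM in RC48.

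TFEB had 9.37, 9.44 and 8.30 CPM in Control and 14.6, 10.1 and 9.63 CPM in RC48. TFE3 had 82.7, 80.2 and 75.3 CPM in Control and 119, 87.0 and 96.0 CPM in RC48. Each had a log2 fold change of 0.34 and no overlap, with adjusted p-values of 0.326 and 0.257 in edgeR's quasi-likelihood test. With the correction these were −0.02 and 0.03, and the groups overlapped. The levels of these transcripts do not measure the activity of either factor, which depends on its place in the cell.

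Promoters were then searched for TCACGTG, the core of the element that TFEB and TFE3 bind, on both strands. RefSeq promoters (GRCh38.p14, 250 bases before to 50 after the first listed start of a gene) were found for 31 members. The letters occurred in 8 of them (25.8%), ATP6V0D1, CLN3, CTSA, CTSD, GAA, LAMP1, MCOLN1 and NEU1, compared with 3.82% of all 27305 promoters and 5.78% of those of the genes tested. The palindrome TCACGTGA, which contains TCACGTG, occurred in 6 members (19.4%) and in 1.04% of all promoters. The shorter CACGTG, contained in both, occurred in 9 members (29%) and in 7.43% of all promoters. The windows below belong to NEU1, CTSA and GAA, the members with the element that have the largest log2 fold changes, and to CTSD, the most abundant of them, and capitals mark TCACGTG on either strand, with its eighth base where the palindrome is complete.
NEU1 (chr6:31862917-31862973, minus strand): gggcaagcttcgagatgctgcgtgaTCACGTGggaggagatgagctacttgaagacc
CTSA (chr20:45891284-45891341, plus strand): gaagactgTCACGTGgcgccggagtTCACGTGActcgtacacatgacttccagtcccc
GAA (chr17:80101524-80101581, plus strand): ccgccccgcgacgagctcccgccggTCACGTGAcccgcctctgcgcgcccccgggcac
CTSD (chr11:1763943-1763999, minus strand): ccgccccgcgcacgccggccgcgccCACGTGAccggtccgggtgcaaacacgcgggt

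The run of capitals begins 127 bases before the start in NEU1, 26 in CTSA (its later run), 32 in GAA and 47 in CTSD. Members with TCACGTG had a median log2 fold change of 0.50 (8 genes, from 0.18 to 0.59) and the other members with a promoter 0.26 (23 genes, from −0.52 to 0.58). After the correction for GC content, the medians were 0.15 and 0.09. The transcripts of the first set were richer in GC, with a median of 58.6% compared with 51.2%, and the part of GC content in the difference was not tested further. CTSB, LAMP2, PSAP, MANBA, HEXA, ASAH1, ARSA, LGMN, ATP6V1H, NAGLU and CTSS had no entry.

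The size of a member's difference depended on the library. The median log2 ratio of the members to the Control mean was 0.43 in RC48 replicate 1, 0.09 in replicate 2 and 0.22 in replicate 3, while all genes tested had medians of 0.03, 0.01 and 0.00. RC48 replicate 1 lay farthest from Control for 35 members. Its ratios ran from −1.10 (LIPA) to 1.00 (GAA), compared with −0.23 (CTSD) to 0.47 (CTSS) in replicate 2 and −0.48 (LIPA) to 0.59 (MAN2B1) in replicate 3. The median coefficient of variation of TPM among libraries was 4.16% in Control and 12.8% in RC48, and was larger in RC48 for 37 members. In 27 members all RC48 libraries lay above the Control mean (27.8% of all genes tested), and in 3 all lay below it (24.1%).

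These differences between libraries went along with GC content. When the members were divided into 3 sets of 14 genes, the set with the lowest GC content (40.4% to 50.7%) had median log2 ratios of −0.08, 0.11 and 0.07 in RC48 replicates 1, 2 and 3. The middle set (50.9% to 57%) had 0.41, 0.09 and 0.22, and the highest set (57.4% to 66.1%) had 0.79, 0.12 and 0.37. Replicate 2 thus showed no gradient among the members, whereas replicates 1 and 3 did. Across the members, which are not independent and share their libraries, Spearman's rho of the log2 ratio with GC content was 0.822, −0.00251 and 0.591 (42 genes). In replicate 1, the 10% of all genes with the lowest GC content had a median of −1.0 and the 10% with the highest 0.68. After the correction, the median ratio of the highest set was 0.11, 0.08 and 0.12. The middle set then had 0.13, 0.03 and 0.08, and the lowest set 0.29, 0.06 and 0.11. In replicate 1 the lowest set thus came to lie above the highest. Spearman's rho across the members was then −0.0845, 0.0199 and −0.0158.

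Members also differ in base composition within their coding sequence, of which G and C make up 64.7% in GAA and 44.5% in SCARB2. The stretches below were taken from the middle of the coding sequences of GAA, the member with the highest ratio in RC48 replicate 1, and SCARB2, with a negative log2 fold change in the uncorrected fit (GENCODE release 29, GRCh38). Each runs over 90 coding bases and a splice junction, with G and C in capitals. GC makes up 64.4% of the stretch of GAA (exons 9 and 10, coding bases 1384 to 1473) and 36.7% of that of SCARB2 (exons 5 and 6, coding bases 673 to 762), so the SCARB2 stretch is poorer in GC than its whole coding sequence.
GAA (chr17:80110002-80110762, plus strand): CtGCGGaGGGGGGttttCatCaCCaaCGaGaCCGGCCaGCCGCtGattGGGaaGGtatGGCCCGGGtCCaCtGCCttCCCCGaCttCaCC
SCARB2 (chr4:76175853-76176468, minus strand): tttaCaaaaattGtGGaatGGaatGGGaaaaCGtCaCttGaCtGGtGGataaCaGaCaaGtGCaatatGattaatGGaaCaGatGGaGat

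**Figure D4:**
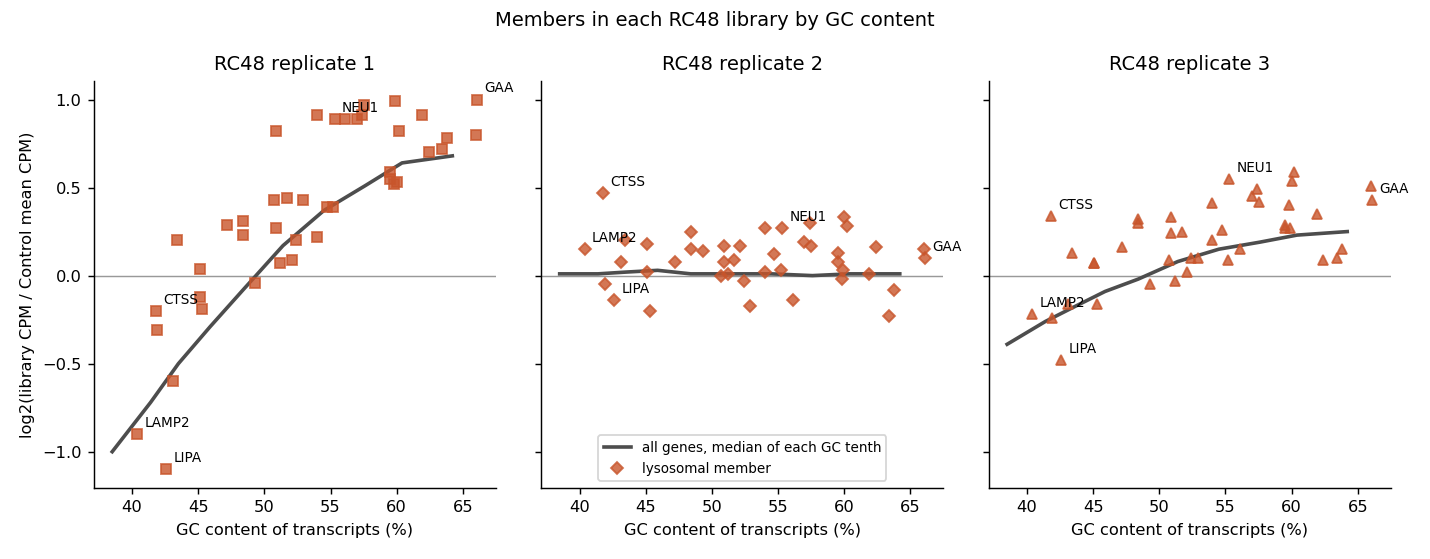
Log2 ratio of each member in RC48 replicates 1, 2 and 3 to its Control mean, plotted against the GC content of its transcripts in percent, with the medians of all genes in 10 bins of GC content as a dark line. In replicates 1 and 3 ratios are higher at higher GC content along the line of all genes, and in replicate 2 both are flat. CTSS lies above the line in every panel and LIPA below it.

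Without RC48 replicate 1 and with the correction, an alternative chosen after seeing the data, CTSB, CTSS, MAN2B1 and NEU1 were called (12.2% of all genes), all of them higher in RC48. The log2 fold changes of 14 members changed sign with the correction. These were LAMP1, LAMP2, NPC2, CLN3, CTSD, CTSH, LGMN, PPT1, ASAH1, HEXA, NAGLU, IDS, ARSB and TFEB, and none of them was called in either fit.

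Other genes of the lysosome and of the pathways around it were examined with lists chosen for their function. Among 10 other lysosomal proteases tested, 1 rose, CTSE, and among 39 other lysosomal membrane proteins, 1 rose, SLC15A3 (edgeR, 1.98% of all genes called higher and 0.23% lower). None of 30 other hydrolases, 18 other proton pump subunits, 21 genes of enzyme sorting and maturation and 17 genes of lysosomal signalling was called in this test. At an unadjusted p-value under 0.05, 8, 3, 0 and 1 of them were higher (11.9% of all genes tested). Lower at that threshold were 1, 1, 0 and 0 (7.21% of all genes). Of 10 cystatins listed, inhibitors of cysteine cathepsins, 6 passed the filter and were tested, and 3 rose. Log2 fold changes of the 6 were positive for 5 and negative for 1 (−0.32), and positive for all 6 after the correction. Among 21 autophagy genes of the TFEB network, 2 rose. No gene of these lists was called lower in this test. Without RC48 replicate 2 there were 3 hydrolases, 1 membrane protein, 1 sorting gene and 3 signalling genes called lower. In that fit 28.3% of all genes were called in either direction. The medians of the log2 fold change were 0.95 for the cystatins, 0.25 for the other membrane proteins, 0.21 for the other proteases, 0.20 for enzyme sorting, 0.18 for the autophagy genes, 0.11 for the other hydrolases, 0.03 for the other pump subunits and 0.01 for lysosomal signalling. After the correction for GC content these were 0.65, 0.14, 0.11, 0.00, 0.14, −0.00, 0.01 and 0.14, in the same order.

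The largest of these differences were those of CST1 and CST4, secreted cystatins. CST1 had 19.4, 21.8 and 19.8 CPM in Control and 241, 126 and 149 CPM in RC48, and rose by 3.08 ± 0.25 on the log2 scale (SE, adjusted p = 0.00110, edgeR's quasi-likelihood test). CST4 had 9.42, 8.63 and 8.01 CPM in Control and 93.7, 47.0 and 50.9 CPM in RC48, and rose by 2.88 ± 0.29 (adjusted p = 0.00252, edgeR). These genes are near-identical in sequence, so that reads may be divided between them and each value is uncertain. CST6 had 15.6, 14.6 and 11.3 CPM in Control and 40.8, 25.7 and 30.4 CPM in RC48, and rose by 1.22 ± 0.21 (adjusted p = 0.0321, edgeR). The intracellular inhibitor CSTB was higher in all RC48 libraries, with 239, 247 and 213 CPM in Control and 407, 279 and 340 CPM in RC48, but was not called (adjusted p = 0.149, edgeR).

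Among the autophagy genes, the receptor SQSTM1 had 505, 507 and 458 CPM in Control and 907, 822 and 928 CPM in RC48. It rose by 0.85 ± 0.11 on the log2 scale (SE, adjusted p = 0.00917, edgeR), and the 3 RC48 libraries lay close together. GABARAPL1, which joins the autophagosome membrane, had 44.0, 45.2 and 41.2 CPM in Control and 122, 84.1 and 92.8 CPM in RC48, and rose by 1.19 ± 0.16 (adjusted p = 0.0108, edgeR). CTSE, an aspartic protease of endosomes, rested on few counts, 19 in Control and 78 in RC48, and rose by 2.01 ± 0.36 (adjusted p = 0.0344, edgeR). Its Control counts do not reach 10 in each library, so with a minimum of 10 counts in every library it was not tested. In that fit 6 genes of these lists were called (3.75%, compared with 1.82% of all genes). The histidine and peptide transporter SLC15A3 had 2.43, 3.19 and 2.18 CPM in Control and 7.84, 5.43 and 5.73 CPM in RC48, and rose by 1.28 ± 0.23 (adjusted p = 0.0352, edgeR). All 7 were also called after the correction for GC content, in which 16 of 162 genes of these lists were called (9.88%, compared with 7.18% of all genes), 2 of them (SLC48A1 and CLN6) lower. The number called in these lists depended on the libraries. Without Control replicates 1, 2 and 3, the counts were 2 (1.23%), 2 (1.23%) and 1 (0.613%). Of all genes, 0.537%, 0.591% and 0.515% were called in the same fits. Without RC48 replicate 3, 2 were called (1.23%), compared with 0.706% of all genes. Without RC48 replicate 1, 14 were called (8.64%, compared with 6.82% of all genes), and without RC48 replicate 2, 57 (35%, compared with 28.3%).

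**Figure D5:**
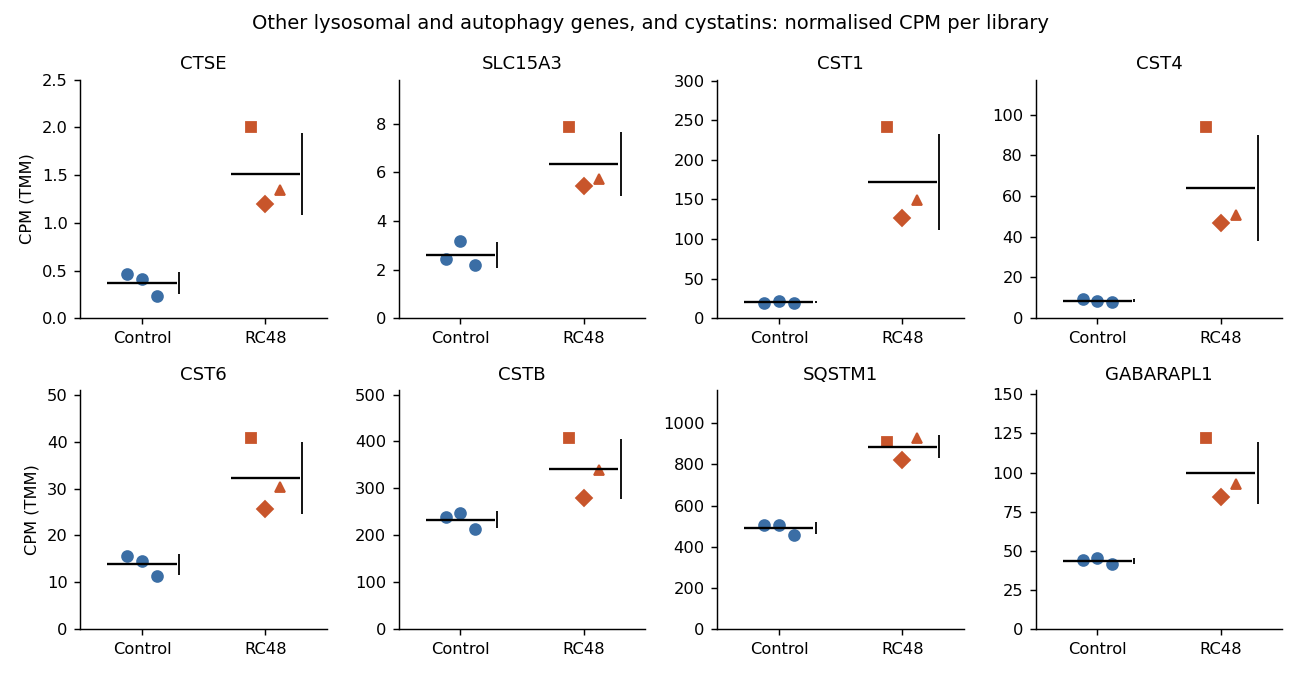
Normalised CPM per library of the 7 called genes outside the members and of CSTB, with Control as blue circles and RC48 replicates 1, 2 and 3 as orange square, diamond and triangle. Lines are group means and 1 SD (n = 3). In each panel all RC48 libraries lie above all Control libraries, and CSTB was not called.

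Markers of other cells were examined because lysosomal genes are abundant in macrophages. Of 16 macrophage markers 11 were listed, 7 of these were under 1 TPM in every library, and none was at 0 in all libraries. They summed to 6.31 to 6.99 TPM in Control and 9.45 to 11.6 TPM in RC48, and ITGAM, with 5 counts in Control and 188 in RC48, was called higher (adjusted p = 0.00740, edgeR). With so few Control counts, ITGAM passed the filter on low counts only through the RC48 libraries, where it is high. PTPRC had 0 counts in Control and 2 in RC48. Of 9 fibroblast markers listed, 4 were under 1 TPM in every library, and the list summed to 231 to 259 TPM in Control and 189 to 265 TPM in RC48. Of the 5 tested, FAP was called higher, and log2 fold changes were positive for 4 and negative for 1, from −0.86 to 1.31. Of the 12 epithelial markers, KRT20 was called lower, while 7 log2 fold changes were positive and 5 negative, with a median of 0.05. Over all genes tested, 1.98% were called higher and 0.23% lower. The part of these genes in the members' values was not tested, and in bulk RNA a change in the number of cells of a type cannot be told from a change in RNA per cell.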

How the data were processed

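RNA of SW780 cells was sequenced in 6 libraries (3 Control, 3 RC48 at 25 µg/ml). SOAPnuke, Bowtie2 and RSEM were used by the authors for filtering, mapping and counting. The submitters' processing notes name hg38, and the annotation, versions and use of strand are not given in the sources used here. For each gene the authors deposited an estimated count, not normalized, and for 5 libraries a TPM value, scaled for length and depth. TPM of RC48 replicate 2 was derived here from its counts and from effective lengths, estimated from genes that reached 20 counts and 1 TPM in the other libraries. Applied to RC48 replicate 3, this departed from the deposited TPM by 0.0363 on the log2 scale (median absolute difference, 11960 genes).

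The 42 members, the other lists and the tests were chosen with earlier results of these data known. Every member is named. Values in every library are given for the proteases, the 5 most abundant members, the 5 largest rises and the falls among members whose groups do not overlap, members called in the uncorrected fit, TFEB and TFE3, and for called genes of the other lists (up to 3 a list). CTSS, NEU1 and CSTB also carry values chosen after these were seen, as do LAMP2 and the counts of ITGAM and PTPRC. Values in every library are given for ATP6V0D1 as well, outside these rules.

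Estimated counts were rounded, filtered with filterByExpr, scaled by TMM factors and compared without covariates by the quasi-likelihood test of edgeR (R 4.3.3, edgeR 4.0.16, limma 3.58.1), with Benjamini-Hochberg adjustment over all genes tested and a threshold of 0.05. Permutation tests used log2 CPM. The authors' stated design, limma on log2(TPM+1), was run as an alternative. GC content was that of GENCODE release 29 transcripts, found for 16289 of 16390 genes (99.4%), and the correction subtracted the loess trend (span 0.3) of each library. The other alternatives were DESeq2 1.42.0, log2(TPM+0.1), library sizes alone, RLE size factors, a minimum of 10 counts in every library, no filter, a term for the replicate number, each library left out and, chosen after seeing the data, the correction without RC48 replicate 1. The fit was tested on simulated data whose changes were larger than those of the members, so that test does not cover changes of the members' size. Library totals differed by up to 1.09 times, and intervals cover the spread between libraries. Figures were drawn with matplotlib 3.10.9 in Python 3.11.15.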

Additional observations from a re-analysis of the deposited data

How the results depend on the processing

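The correlations of same-numbered Control and RC48 libraries were −0.013, −0.116 and 0.0183, so the replicate numbers are not taken to pair the samples. With the replicate block, 331 genes were called and 0 members, so it changed no member's call, and with the block and the correction for GC content 637 genes and 1 member. Members called numbered 1 with DESeq2, 8 with limma on log2(TPM+1) in 5 libraries (which lack RC48 replicate 2), 2 with the correction, 4 with the correction without RC48 replicate 1, and 0 to 16 with 1 library left out (3 without RC48 replicate 1 and 16 without RC48 replicate 2). Genes called over the whole table numbered 288 in the fit as reported (2.21% of all genes tested), 676 with DESeq2 (4.78%) and 2711 with limma in 5 libraries (20.8%). They numbered 938 with the correction (7.18%), 1609 with the correction without RC48 replicate 1 (12.2%), and 68 (0.515%) to 3726 (28.3%) with 1 library left out. Called genes of the other lists numbered 7 as reported (4.32%, compared with 2.21% of all genes) and 12 with DESeq2 (7.27%, compared with 4.78%). With limma in 5 libraries they numbered 30 (18.5%, below the 20.8% of all genes). With the correction they numbered 16 (9.88%, compared with 7.18%), and 23 without RC48 replicate 1 as well (14.2%, compared with 12.2%). With 1 library left out they ran from 1 (0.613%, compared with 0.515%) to 57 (35%, compared with 28.3%). Members whose groups do not overlap, in either direction, numbered 23 as reported (54.8%, compared with 31.5% of all genes) and 15 with the correction (35.7%, compared with 34.1%). With 1 library left out they numbered 24 to 35. The number was 24 without Control replicate 1, RC48 replicate 1 or RC48 replicate 3 (57.1% in each, compared with 35.6%, 39% and 34.5%). It was 35 without RC48 replicate 2 (83.3%, compared with 65.3%). On log2(TPM+1) they numbered 17 in 6 libraries (40.5%, compared with 29.6% of all genes) and 28 in 5 libraries (66.7%, compared with 62.3%). The median log2 fold change of the members lay between 0.15 and 0.31 with 1 library left out, was 0.09 with the correction and 0.06 with the correction without RC48 replicate 1. The median over all genes was 0.02 as reported and −0.09 with limma in 5 libraries, where the members' median was 0.20. The median Control TPM of the members ran from 60.3 to 63.7 with 1 Control library left out.

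None of the members was called in the fit as reported, and 19 changed sign under at least 1 of 18 alternatives, through 62 of 756 values. With the correction for GC content, log2 fold changes became −0.04 for LAMP1, 0.03 for LAMP2, −0.10 for NPC2, −0.00 for CLN3, −0.14 for CTSD, −0.03 for CTSH, −0.03 for LGMN, 0.11 for PPT1, 0.09 for ASAH1, −0.06 for HEXA, −0.05 for NAGLU, −0.04 for IDS, −0.02 for ARSB and −0.02 for TFEB. With the replicate block beside it they were −0.04, 0.03, −0.09, −0.01, −0.14, −0.03, −0.04, 0.11, 0.08, −0.06, −0.05, −0.04, −0.02 and −0.02, in the same order. With the correction and without RC48 replicate 1 they were −0.04 for LAMP1, 0.09 for LAMP2, 0.03 for SCARB2, −0.09 for NPC2, −0.22 for CTSD, −0.12 for LGMN, −0.02 for TPP1, 0.06 for PPT1, −0.11 for GUSB, −0.05 for HEXA, −0.12 for NAGLU, −0.00 for ARSB and −0.03 for TFEB. NPC2 was −0.01 with DESeq2, −0.24 and −0.15 with limma on log2(TPM+1) in 5 and 6 libraries, −0.15 on log2(TPM+0.1), −0.05 with library sizes alone and −0.00 without a filter. ARSB was −0.01 with DESeq2, −0.18 and −0.07 with limma on log2(TPM+1) in 5 and 6 libraries, −0.08 on log2(TPM+0.1) and −0.04 with library sizes alone. CTSS was −0.05 and MANBA −0.06 with limma in 5 libraries. With 1 library left out, NPC2 ran from −0.08 to 0.07, CTSD from −0.07 to 0.44, LGMN from −0.04 to 0.27, PPT1 from −0.07 to 0.04 and ARSB from −0.05 to 0.08. The cause of these changes was not tested. Standard errors of 0.10 to 0.25 with 3 libraries per group limit the size of difference that these fits can call.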
